A study of Mus musculus with 8 samples.

Results

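The genes described here are 10 amino acid transporters of the plasma membrane, chosen by symbol as the main amino acid carriers of cancer cells other than the arginine carriers. They were *Slc7a5*, *Slc3a2*, *Slc1a4*, *Slc1a5*, *Slc7a6*, *Slc7a11*, *Slc38a1*, *Slc38a2*, *Slc6a6* and *Slc6a9*, 10 of the 39089 genes in the tables, and all 10 passed the filter on low counts that left 13921 genes for testing. RNA-seq was done on cells sorted as EpCAM-positive and CD45-negative from subcutaneous tumors of Myc-CaP, a line of mouse prostate cancer cells with a *Myc* transgene. Of the 4 groups with 2 samples each, WT tumors carried a control vector and *Arid1a* KO tumors (KO from here on) carried sgARID1A, a guide RNA against the gene of ARID1A, which belongs to the chromatin remodeler SWI/SNF. All hosts were male FVB mice, 6 weeks old at inoculation. From day 16 the tumors of each genotype received either JSH-23 or corn oil without JSH-23 (vehicle), every day by gavage for 2 weeks. JSH-23, which blocks nuclear entry of the NF-κB subunit p65, was dissolved in DMSO and thinned with corn oil. The paper's figure legend names the control arms of these tumors DMSO, so whether the vehicle held DMSO is not settled here. The comparisons ask how *Arid1a* loss changed the tumor cells and how much of that change was altered by JSH-23. The sources used here do not say whether the KO line was a clone or a pool, or whether the samples of a group came from separate mice, so the p-values measure only the spread between these samples, which may be technical.

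Amino acid carriers set which nutrients a tumor cell can take up and which it must make. Heteromeric carriers pair a light chain that moves the amino acid (*Slc7a5*, *Slc7a6*, *Slc7a11*) with the glycoprotein heavy chain *Slc3a2*, which brings them to the cell surface. Sodium-dependent carriers (*Slc1a4*, *Slc1a5*, *Slc38a1*, *Slc38a2*) bring in neutral amino acids such as glutamine, serine and alanine, *Slc1a5* by exchange. The light chains *Slc7a5* and *Slc7a11* give up an amino acid from inside the cell to import leucine or cystine, glutamate in the case of *Slc7a11*. Many of these genes are known targets of ATF4, the transcription factor that cells translate when amino acids run short or proteins misfold, and *Slc7a5* and *Slc1a5* are known for high expression in prostate cancer.

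An 8-base core of the ATF4 response element, TGATGCAA, was searched on both strands of the RefSeq promoter windows of GRCm38.p6, which run from 250 bases before a gene's start to 50 bases after it. It was present in 0.89% of 32851 windows. Windows were at hand for 6 of the 10 transporters (*Slc3a2*, *Slc1a4*, *Slc7a6*, *Slc7a11*, *Slc38a2* and *Slc6a9*), and the core lay in those of *Slc7a11* and *Slc1a4*. The window of *Slc3a2* (chr19:8713848-8714147, minus strand) lay inside the gene as the deposited tables place it (8706882 to 8723369), away from its outer start. *Slc7a11* held it at -66 on its own strand and at -47 on the opposite strand. *Slc1a4* held it at -4 on the opposite strand. The stretches from 100 bases before to 20 bases after the start are shown because they hold the core. The 3 windows of *Slc6a9*, which had the largest fall with JSH-23 in KO tumors among the 6 genes, held none. The capitals mark the core on either strand.
*Slc7a11* (chr3:50443594-50443713, minus strand): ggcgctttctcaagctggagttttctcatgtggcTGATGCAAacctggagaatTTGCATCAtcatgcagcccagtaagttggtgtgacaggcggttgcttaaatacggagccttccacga
*Slc1a4* (chr11:20332694-20332813, minus strand): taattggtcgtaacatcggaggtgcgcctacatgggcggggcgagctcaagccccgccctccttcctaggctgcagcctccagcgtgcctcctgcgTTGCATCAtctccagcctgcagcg
None of the 6 genes held the E-box CACGTG (7.15% of all windows) or GGGNNTTTC, the start of an NF-κB site (4.36%). The antioxidant response core TGANNNNGC was in the windows of 5 of the 6 genes, but these loose letters were in 41.34% of all windows, and at -45 in *Slc7a11* they overlapped the ATF4 core. Such matches describe letters and do not show binding, and sequence outside the windows was not searched.

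The depth was similar across the samples, with total counts from 16401581 to 21972231. *Arid1a* itself was at 156 and 161 CPM in WT and at 103 and 106 CPM in KO tumors with vehicle, and at 144 and 155 against 93.8 and 95.9 CPM with JSH-23. CPM are counts scaled to the size of the library, with TMM factors. The KO samples were thus all below the WT samples, while most reads of the targeted gene remained. The sorted cells held *Krt8* (44.6 to 158 TPM), *Krt19* and the prostate factor *Hoxb13*. The gene of the sort marker was nearly absent: *Epcam* lay between 0 and 0.238 TPM, and *Cdh1* and *Pbsn* were also under 1 TPM in every sample. Of 11 leukocyte markers, 9 were under 1 TPM in every sample, including *Ptprc*, which encodes CD45. The leukocyte markers summed to between 38.9 and 46.4 TPM with vehicle and between 18.1 and 23.1 TPM in KO tumors with JSH-23, most of it from *Cd68* and *Lyz2*. In WT tumors with JSH-23 the sums were 38.1 and 21.7 TPM. Single markers also moved with genotype: with vehicle *Cd68* had 110 and 127 counts in WT and 301 and 378 in KO tumors, *Lyz2* 164 and 165 against 54 and 71, and the macrophage gene *Adgre1* 17 and 19 against 0 and 0. *Adgre1* had 17 counts in the first and 1 in the second WT sample with JSH-23. Fibroblast markers summed to between 10.8 and 11.5 TPM in KO tumors with JSH-23 and to between 17.9 and 20.5 TPM in the other groups, most of it *Pdgfra*. The leukocyte and fibroblast sums were thus lower with JSH-23 in KO tumors, and the part of these markers in the results was not tested. In such bulk samples fewer cells of a type and less RNA per cell cannot be told apart.

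By TPM, which allow for gene length, *Slc7a5* was the most abundant transporter in every group, at 435 ± 4.78 TPM in WT and 553 ± 5.05 TPM in KO tumors with vehicle (SD, n = 2). *Slc6a6* followed in WT tumors with vehicle at 245 ± 1.80 TPM, then *Slc3a2* at 174 ± 4.03 and *Slc1a5* at 154 ± 4.55 TPM (SD, n = 2). *Slc38a2*, *Slc1a4*, *Slc7a11* and *Slc38a1* came next, between 96.0 and 53.6 TPM. *Slc6a9* (21.2 ± 0.134 TPM) and *Slc7a6* (20.9 ± 0.630 TPM) were the least abundant and did not differ beyond their spread (SD, n = 2). The order changed with the group. In KO tumors with vehicle *Slc6a6* and *Slc3a2* were both at 233 TPM with overlapping samples, and *Slc1a4* (126 TPM) stood above *Slc38a2* (115 TPM). In KO tumors with JSH-23 *Slc3a2* (216 TPM) stood above *Slc6a6* (183 TPM). The summed level of the 10 genes was 1368 and 1374 TPM in WT and 1627 and 1636 TPM in KO tumors with vehicle. With JSH-23 the sums were 1227 and 1221 TPM in WT and 1094 and 1098 TPM in KO tumors, so the genotype with the higher sum under vehicle had the lower sum under JSH-23. On the CPM scale this order did not hold, with sums of 2489 and 2489 in WT and 2540.0 and 2567 in KO tumors with JSH-23.

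**Figure D1:**
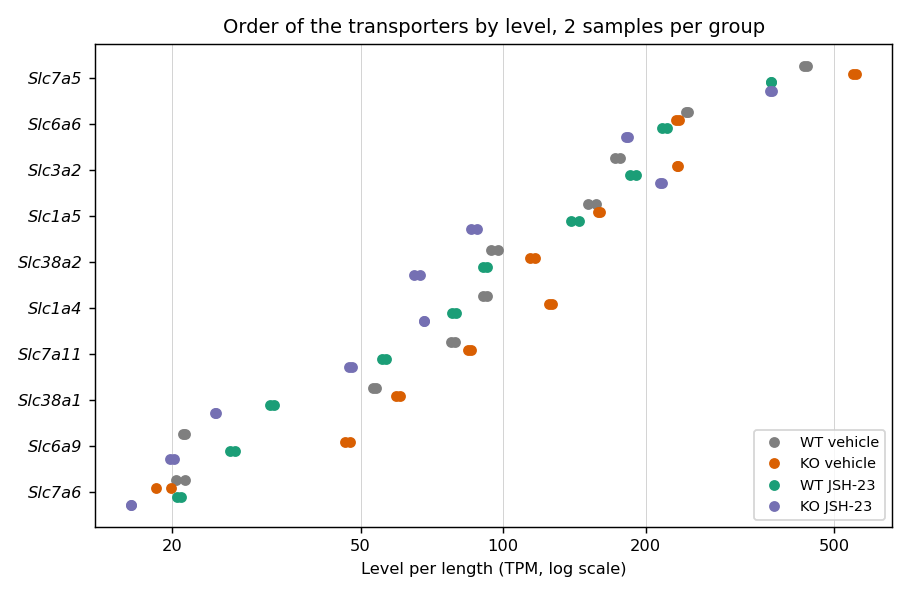
Level per length (TPM, log scale) of the 10 transporters in each of the 2 samples of the 4 groups, ordered by the mean in WT tumors with vehicle. *Slc7a5* is highest in every group, and *Slc6a9* stands apart from *Slc7a6* in KO tumors with vehicle but overlaps it in WT tumors with vehicle.

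Between KO and WT tumors given vehicle, 1 of the 10 transporters was upregulated and none was downregulated, by at least 1.5-fold and a Benjamini-Hochberg adjusted p under 0.05 from the quasi-likelihood fit of edgeR, the criterion behind "upregulated", "downregulated", "rose" and "fell" throughout. Of all 13921 genes tested, 7.48% were upregulated and 5.16% were downregulated. The upregulated gene was *Slc6a9*. By adjusted p alone, 7 transporters were higher and 1, *Slc6a6*, was lower, where 7032 of all genes passed. The median log2 fold change of the 10 was 0.21, against 0.00 for all genes. JSH-23 in KO tumors downregulated 5 transporters (*Slc1a4*, *Slc1a5*, *Slc7a11*, *Slc38a1* and *Slc6a9*) and upregulated none, with 16.9% of all genes downregulated and 9.10% upregulated. The median of the 10 was -0.58, against -0.02 for all genes. In WT tumors JSH-23 downregulated 1 transporter, *Slc38a1*, and upregulated none (10.2% and 5.55% of all genes), with a median of -0.10.

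Under JSH-23 none of the 10 transporters met the criterion between KO and WT tumors, where 3.74% of all genes were upregulated and 4.97% were downregulated, and DESeq2 also gave 0. By edgeR 8 of the 10 (2 higher and 6 lower in KO tumors) had an adjusted p under 0.05, and 8 an unadjusted one, against 6536 (47.0%) and 7263 of all genes. Against WT tumors with vehicle, KO tumors with JSH-23 had 2 transporters downregulated (*Slc38a1* and *Slc1a5*) and none upregulated, with 14.0% and 7.49% of all genes. The effect of JSH-23 in KO minus that in WT tumors, the interaction, was more negative by at least 1.5-fold for 1 transporter, *Slc6a9*, and more positive for none, against 5.76% and 3.30% of all genes. By adjusted p alone, 7 of the 10 had the more negative effect in KO tumors and none the more positive one. Of all genes 5346 (38.4%) passed this adjusted p, in either direction. The comparisons of genotype under vehicle and of JSH-23 in KO tumors, and the interaction, share the KO samples with vehicle. Scaling mattered to these counts: limma on log2(TPM + 1) in place of the counts moved the median of all genes to -0.20 for JSH-23 in KO tumors and to -0.17 for the interaction, and gave 4 transporters with an interaction of at least 1.5-fold and 1 that differed between the genotypes under JSH-23.

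**Figure D2:**
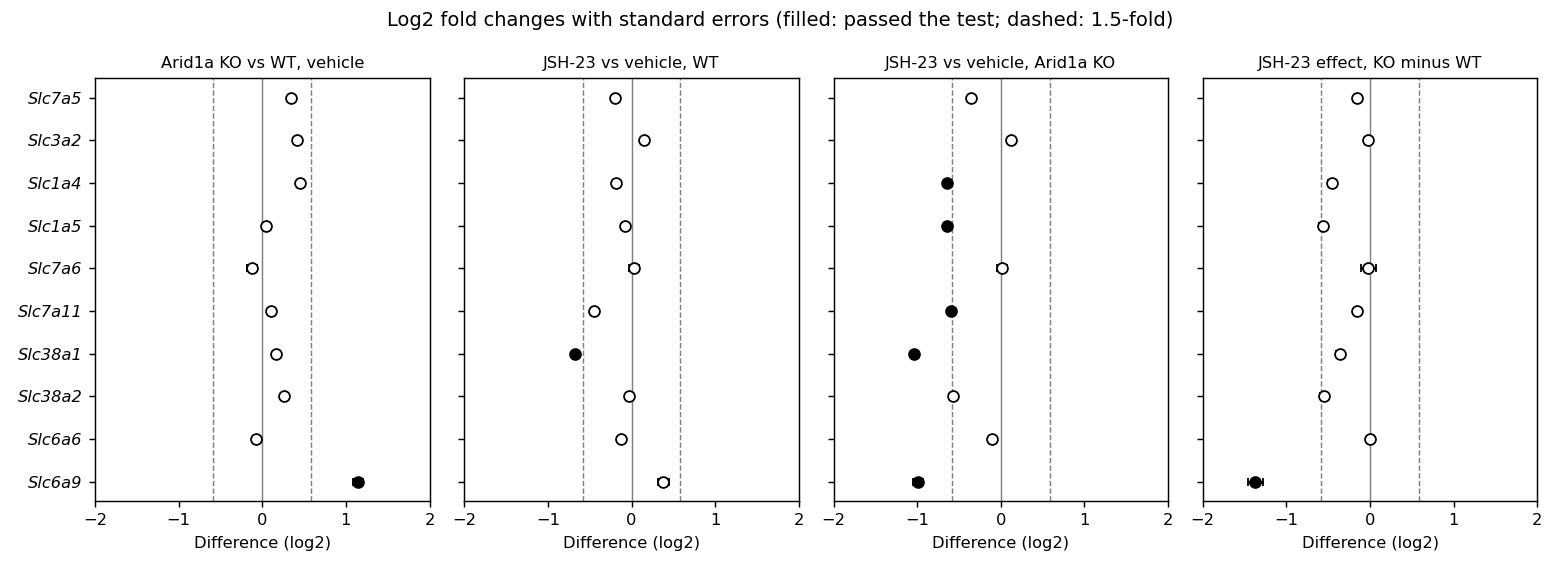
Log2 fold changes of the 10 transporters with their standard errors, in 3 comparisons and in the interaction (the JSH-23 effect in KO minus that in WT tumors), with dashed lines at 1.5-fold. Filled points met the criterion: *Slc6a9* in KO tumors, *Slc38a1* with JSH-23 in WT tumors, 5 genes with JSH-23 in KO tumors, and *Slc6a9* in the interaction.

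*Slc6a9* encodes the glycine carrier GLYT1, which with sodium and chloride brings glycine into the cell. It lies on chromosome 4 of GRCm38, from 117835258 to 117869305 on the plus strand. Its level was 31.8 and 31.4 CPM in WT and 70.6 and 68.8 CPM in KO tumors with vehicle, on counts from 534 to 1421. The groups were far apart, and the log2 fold change of 1.14 (standard error, SE, 0.059, adjusted p = 5.52e-27 in edgeR) was exceeded by 3.39% of all genes. With JSH-23 the level was 35.2 and 34.8 CPM in KO tumors, a log2 fold change of -0.99 (SE 0.056, adjusted p = 2.13e-25), and 41.7 and 40.7 CPM in WT tumors, a log2 fold change of 0.38 (adjusted p = 9.34e-07). JSH-23 thus brought the level down in KO tumors, while both WT samples with JSH-23 lay above those with vehicle. The interaction was -1.37 (SE 0.087, adjusted p = 3.19e-22), and 2.85% of all genes had a more negative one. Where the biological coefficient of variation was set to 0.2 (fitted 1.61%), the interaction no longer passed the test. Under JSH-23 the KO samples lay below the WT samples, by -0.23 on the log2 scale (adjusted p = 0.00137). The exons of *Slc6a9* share 27.8% of their bases with *Ccdc24* on the opposite strand, which had 83 counts over all 8 samples where *Slc6a9* had 6561.

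**Figure D3:**
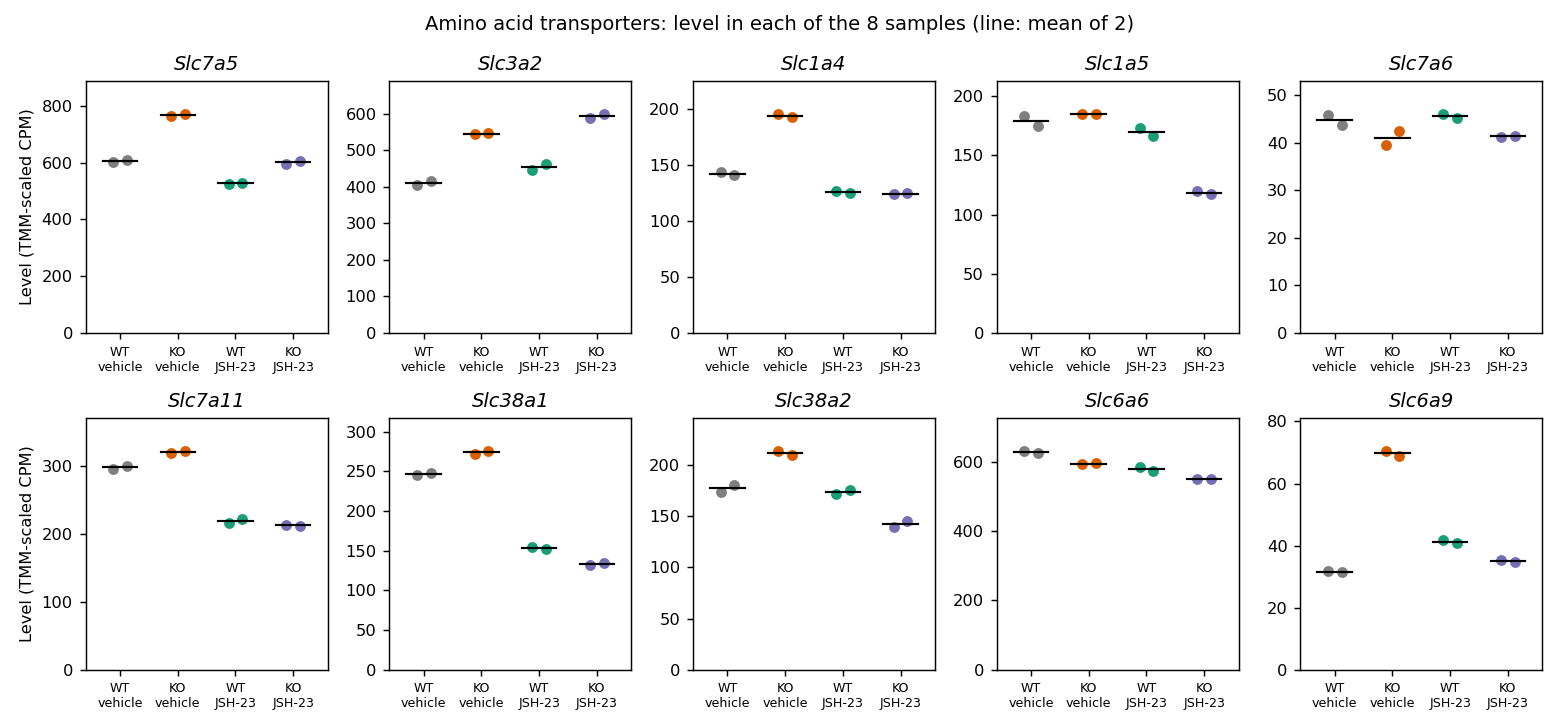
Level of each transporter (TMM-scaled CPM, axes starting at 0) in the 2 samples of each group, with a line at their mean. *Slc6a9* is highest in KO tumors with vehicle, *Slc38a1* is lower with JSH-23 in both genotypes, and *Slc1a5* is lower in KO tumors with JSH-23 than in the other groups.

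*Slc38a1* encodes SNAT1, a sodium-coupled carrier that takes up glutamine, and lies on chromosome 15 from 96571418 to 96643438 on the minus strand. It had the most negative JSH-23 change of the 10 transporters in both genotypes. In KO tumors it was at 272 and 276 CPM under vehicle against 132 and 134 CPM under JSH-23, a log2 fold change of -1.04 (SE 0.028, adjusted p = 1.60e-43). In WT tumors it was at 245 and 248 CPM under vehicle against 155 and 152 CPM under JSH-23, a log2 fold change of -0.68 (SE 0.029, adjusted p = 2.29e-31). The samples with JSH-23 lay far below those with vehicle in both genotypes. The fall was larger in KO tumors, with an interaction of -0.36 (SE 0.041, adjusted p = 1.92e-11). Without JSH-23 the genotypes lay close together, at a log2 fold change of 0.16 (adjusted p = 8.78e-07).

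*Slc38a2*, which encodes the related carrier SNAT2, known to rise when amino acids are withdrawn, lies on the same chromosome from 96687392 to 96699728 and gave another pattern. Its level was 174 and 180.2 CPM in WT and 214 and 209.5 CPM in KO tumors under vehicle, for a log2 fold change of 0.26 (adjusted p = 2.37e-11). With JSH-23 it was 172 and 176 CPM in WT tumors, which overlapped the samples with vehicle, and 139.7 and 145 CPM in KO tumors. The log2 fold change with JSH-23 was -0.03 in WT (adjusted p = 0.508) and -0.57 in KO tumors (SE 0.030, adjusted p = 5.47e-27), just short of the 1.5-fold threshold. *Slc38a2* was the transporter just outside the criterion in KO tumors, at 1.49-fold, and *Slc7a11* the one just inside it, at 1.51-fold. The interaction of *Slc38a2* was -0.55 (SE 0.044, adjusted p = 2.34e-17).

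*Slc1a5* encodes ASCT2, an exchanger of neutral amino acids that brings in glutamine, and lies on chromosome 7 from 16781334 to 16798274 on the plus strand. Its level barely differed between the genotypes with vehicle, at 183 and 175 CPM in WT and at 185 and 185 CPM in KO tumors (log2 fold change 0.05, adjusted p = 0.223). With JSH-23 it was at 173 and 166 CPM in WT tumors and at 120.0 and 117 CPM in KO tumors. The KO samples with JSH-23 lay below all other samples. The JSH-23 change was -0.64 on the log2 scale in KO (SE 0.032, adjusted p = 2.87e-28) and -0.08 in WT tumors (adjusted p = 0.0276), with an interaction of -0.56 (SE 0.045, adjusted p = 3.70e-17). Relative to WT tumors with vehicle, *Slc1a5* in KO tumors with JSH-23 was downregulated, at -0.60 on the log2 scale (SE 0.033, adjusted p = 7.69e-26). Without the first WT sample with vehicle, or without the second KO sample with JSH-23, this was -0.56 and no longer met the criterion. Its pattern over the 8 samples was most like that of *Pdgfra*, at a root-mean-square difference of 0.0353 on the centred log2 scale among 9194 genes of at least 10 CPM. *Pdgfra* was counted above among the fibroblast markers, of which *Dcn*, *Lum* and *Pdgfrb* were under 1 TPM in every sample.

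*Slc1a4*, which encodes ASCT1, a carrier of serine, alanine and cysteine, lies on chromosome 11 from 20302180 to 20332713 on the minus strand and differed in that it was also higher in KO tumors with vehicle. Its level was 144 and 141 CPM in WT and 196 and 193 CPM in KO tumors under vehicle, for a log2 fold change of 0.45 (SE 0.032, adjusted p = 2.87e-20) that did not reach 1.5-fold. With JSH-23 it was 127 and 125 CPM in WT and 124 and 125 CPM in KO tumors, which overlapped. In TPM these samples did not overlap, at 79.5 and 78.0 in WT and 68.2 and 68.2 in KO tumors. On the counts JSH-23 changed *Slc1a4* by -0.64 in KO (SE 0.032, adjusted p = 6.66e-29) and by -0.18 in WT tumors (adjusted p = 9.22e-06) on the log2 scale. The interaction was -0.46 (SE 0.047, adjusted p = 2.56e-13). On log2(TPM + 1) it was -0.66 and met the criterion. The genes nearest to *Slc1a4* in pattern were *Sqstm1*, the autophagy receptor p62, and *Slc7a1*, the arginine carrier. Their root-mean-square differences were 0.0331 and 0.0341 on the centred log2 CPM scale.

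*Slc7a11* encodes xCT, which imports cystine in exchange for glutamate and so feeds glutathione synthesis. The deposited tables place it on chromosome 3 from 50364936 to 50499087 on the minus strand, so that the RefSeq start used for the promoter lies inside this interval. With vehicle it was at 295 and 300.1 CPM in WT and at 318 and 322 CPM in KO tumors, a log2 fold change of 0.11. With JSH-23 it was at 216 and 221 CPM in WT and at 213 and 211 CPM in KO tumors. The samples with JSH-23 lay well below those with vehicle in both genotypes, by a log2 fold change of -0.45 in WT (SE 0.026, adjusted p = 2.28e-24) and of -0.60 in KO tumors (SE 0.025, adjusted p = 1.23e-32). The interaction was small, at -0.15 (SE 0.036, adjusted p = 5.52e-04). In KO tumors the call rested on the threshold: without the second sample with vehicle it was -0.58, without the first sample with JSH-23 -0.58 and without the second -0.57, none of which met the criterion.

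*Slc7a5* encodes LAT1, the exchanger that brings in leucine and other large neutral amino acids, and lies on chromosome 8 from 121881146 to 121907686 on the minus strand. Its level was 602 and 610.3 CPM in WT and 762 and 771 CPM in KO tumors with vehicle, and 526 and 528 CPM in WT and 596 and 607 CPM in KO tumors with JSH-23. With vehicle the KO samples lay above all others, and with JSH-23 they overlapped the WT samples with vehicle. The log2 fold change was 0.34 for KO against WT tumors with vehicle (SE 0.018, adjusted p = 4.69e-26), -0.35 with JSH-23 in KO (SE 0.018, adjusted p = 1.37e-27) and -0.20 with JSH-23 in WT tumors (adjusted p = 1.03e-14). None reached 1.5-fold. On log2(TPM + 1) the JSH-23 change in KO tumors was -0.59 and met the criterion. Its light-chain relative *Slc7a6*, which encodes y+LAT2 (chromosome 8, 106168219 to 106198714, plus strand), ranged only from 39.6 to 46.1 CPM over the 8 samples, and none of its log2 fold changes in the 4 comparisons of groups that differ in genotype or treatment alone exceeded 0.14 in size on the counts.

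*Slc3a2*, the heavy chain CD98hc, lies on chromosome 19 from 8706882 to 8723369 on the minus strand. It was the only transporter of the 10 with a positive JSH-23 change at an adjusted p under 0.05 in both genotypes in edgeR, though in KO tumors not on the TPM scale. It was at 404 and 416 CPM in WT and 545 and 547 CPM in KO tumors under vehicle, and at 447 and 462 CPM in WT and 589.6 and 599.8 CPM in KO tumors with JSH-23. The KO samples lay above the WT samples under either treatment, at a log2 fold change of 0.41 with vehicle (SE 0.021, adjusted p = 1.03e-27) and of 0.39 with JSH-23 (SE 0.020, adjusted p = 9.09e-27), both short of 1.5-fold. No difference in JSH-23 effect between the genotypes was detected (interaction -0.02, SE 0.029, adjusted p = 0.548). The JSH-23 change in KO tumors depended on the scale. It was 0.12 (adjusted p = 1.10e-07) on the counts and -0.11 on log2(TPM + 1), where the median of all genes was itself -0.20.

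The ratio of *Slc7a5* to *Slc3a2* within a sample does not depend on the scaling of the library. In TPM it was 2.52 and 2.47 in WT and 2.36 and 2.38 in KO tumors with vehicle. With JSH-23 it was 1.99 and 1.93 in WT and 1.71 and 1.71 in KO tumors. The 4 groups did not overlap, and both genotypes had less *Slc7a5* mRNA for each *Slc3a2* mRNA under JSH-23. An exact permutation test of 2 against 2 samples cannot reach a p under 0.05, so no p is given.

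**Figure D4:**
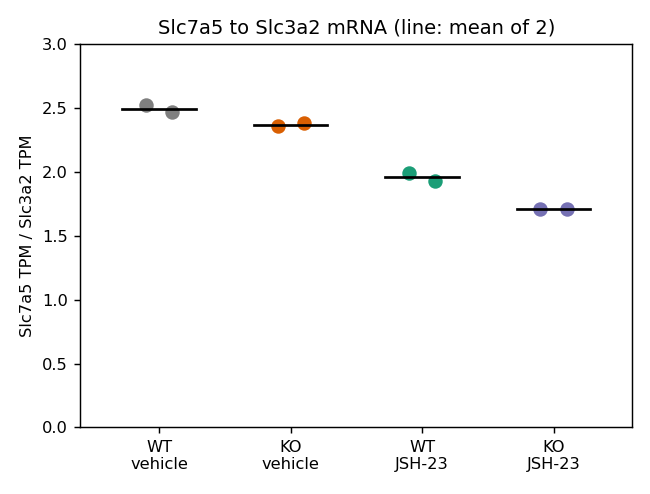
Ratio of *Slc7a5* TPM to *Slc3a2* TPM in each sample, with a line at the mean of the 2 samples of a group and an axis that starts at 0. The ratio lies between 2.36 and 2.52 with vehicle and between 1.71 and 1.99 with JSH-23.

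*Slc6a6*, which encodes the taurine carrier TAUT, lies on chromosome 6 from 91684048 to 91759063 on the plus strand and varied least on the CPM scale. It was at 632 and 624 CPM in WT and 592 and 597 CPM in KO tumors under vehicle, and at 585 and 573 CPM in WT and 549.8 and 550.5 CPM in KO tumors under JSH-23. The log2 fold changes were -0.08 for KO against WT tumors with vehicle and -0.11 and -0.12 with JSH-23 in KO and WT tumors, small values that still passed an adjusted p under 0.05 in edgeR. No interaction was detected on the counts (adjusted p = 0.938), but it was -0.10 without TMM scaling (adjusted p = 0.00113 in edgeR) and -0.19 on log2(TPM + 1) (adjusted p = 0.00175 in limma).

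The ATF4 amino acid response list held enzymes and regulators and none of the 10 transporters. Of its 24 genes, 22 had a promoter window, and 5 of these held the core TGATGCAA, which 0.89% of all windows held. The genes with a window were not all the same as the 22 genes tested. Of the 22 genes tested, 16 rose and none fell in KO tumors with vehicle (7.48% and 5.16% of all genes), with a median log2 fold change of 0.81. *Atf4* itself was at 246 and 239 CPM in WT and 496 and 488 CPM in KO tumors (log2 fold change 1.02, adjusted p = 1.85e-47). The largest rises were those of *Trib3*, a pseudokinase that feeds back on ATF4 (1.86), *Ddit3*, the stress factor CHOP (1.55), and *Chac1*, which degrades glutathione (1.45). *Asns*, which makes asparagine, rose by 0.87 on the log2 scale. Of the transporters, *Slc6a9* (1.14) lay between *Asns* and *Chac1*, while *Slc7a5* (0.34), *Slc3a2* (0.41) and *Slc7a11* (0.11) lay with the ATF4 response genes that did not meet the criterion, such as *Psat1* (0.35) and *Phgdh* (0.42). JSH-23 in KO tumors downregulated 15 of the 22 genes and upregulated none (16.9% and 9.10% of all genes), with a median of -0.67. *Trib3* fell by 2.28, *Chac1* by 1.84 and *Nupr1* by 1.61 on the log2 scale, and *Atf4* fell by 0.59 to 321 and 330.0 CPM. In WT tumors JSH-23 downregulated 3 of the 22 and upregulated 1, *Cebpb*, shares near the 10.2% and 5.55% of all genes. In the interaction 8 of the 22 were more negative by at least 1.5-fold and none more positive (5.76% and 3.30% of all genes). Under JSH-23, 1 of the 22 (*Mthfd2*) was higher in KO than in WT tumors and none was lower (3.74% and 4.97% of all genes).

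**Figure D5:**
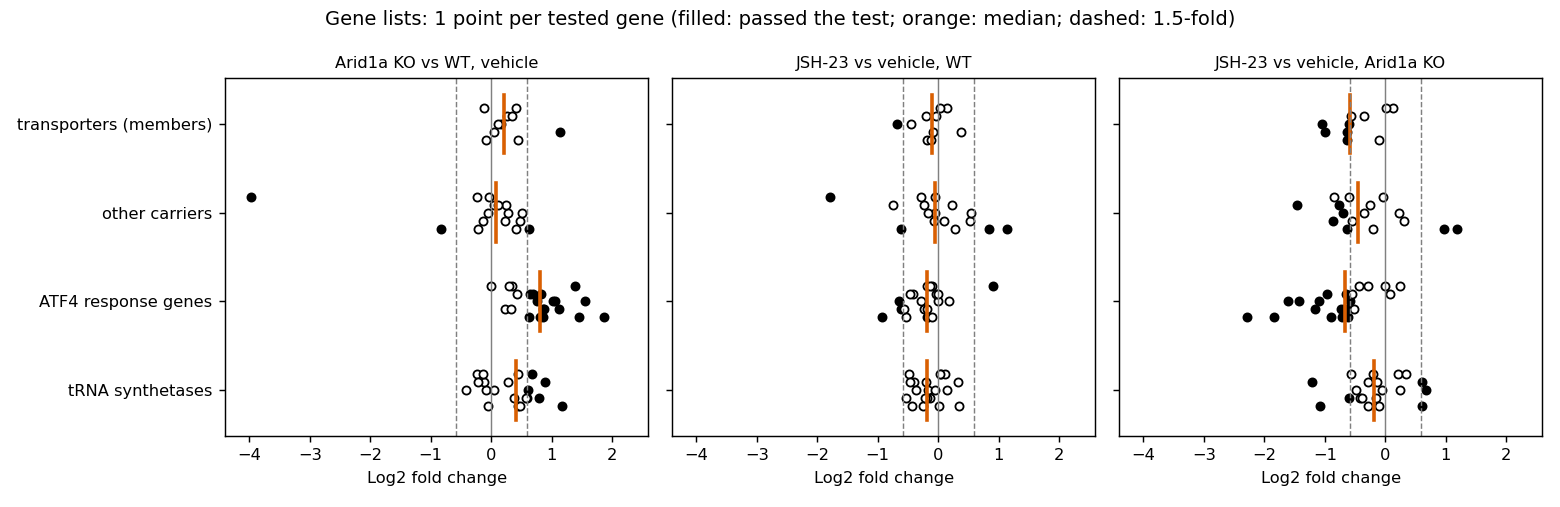
Log2 fold changes of the tested genes of 4 lists in 3 comparisons, with 1 point per gene, filled where the criterion was met, and an orange line at the list's median. The medians in KO against WT tumors with vehicle are 0.21 for the transporters, 0.09 for other carriers, 0.81 for ATF4 response genes and 0.41 for tRNA synthetases, and with JSH-23 in KO tumors -0.58, -0.45, -0.67 and -0.19.

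The cytosolic aminoacyl-tRNA synthetases, which load amino acids onto tRNA and of which many are ATF4 targets, were counted too. In KO tumors with vehicle 6 of 20 were upregulated and none was downregulated (7.48% and 5.16% of all genes), among them *Aars* (1.17), *Wars* (0.89) and *Cars* (0.79). With JSH-23 in KO tumors 3 fell (*Wars*, *Aars* and *Cars*, by 1.22, 1.08 and 0.60) and 3 rose, the latter being *Dars*, *Farsb* and *Qars*, where 16.9% and 9.10% of all genes did, so that the share that fell was near that of all genes.

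Of 35 other amino acid carriers of the plasma membrane and lysosome, 16 had enough counts to be tested. In KO tumors with vehicle 1 rose, the lysosomal cystine exporter *Ctns* (0.63), and 2 fell, *Slc7a7* (-0.83) and *Slc7a2*, the latter near the limit of detection at 0 and 0.0969 CPM in the KO samples (7.48% and 5.16% of all genes). JSH-23 in KO tumors upregulated 2 and downregulated 5 of the 16 (9.10% and 16.9% of all genes), with a median of -0.45. *Slc7a7*, the other light chain of system y+L, rose from 1.44 and 1.45 to 3.62 and 2.97 CPM (log2 fold change 1.18, adjusted p = 4.04e-05) and *Slc38a4* rose by 0.97. The carrier of basic amino acids *Slc7a1* fell from 219.5 and 215 to 135 and 133 CPM (log2 fold change -0.70, adjusted p = 7.49e-32). *Slc43a2*, another carrier of large neutral amino acids, fell in both genotypes, by 0.64 in KO and 0.61 in WT tumors on the log2 scale.

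Enzymes that use what these carriers bring in were counted as well. Of 18 genes for the use of glutamine, cystine and branched-chain amino acids, 2 rose and 1 fell in KO tumors with vehicle, against 7.48% and 5.16% of all genes. They were *Bcat1*, a branched-chain aminotransferase of low level (0.238 and 0.235 CPM in WT, 1.66 and 2.08 CPM in KO tumors, log2 fold change 2.95), *Got1* (0.60) and *Gls2* (-0.68). JSH-23 in KO tumors upregulated 2, *Gclm*, a subunit of the enzyme that starts glutathione synthesis (0.72), and *Bcat2* (0.64), with none downregulated (9.10% and 16.9% of all genes). Of 10 genes of serine, glycine and taurine metabolism, 2 rose and 2 fell in KO tumors with vehicle (7.48% and 5.16% of all genes). *Gnmt* (2.14) rose at a low level, from 0.831 and 0.588 CPM in WT to 2.93 and 3.34 CPM in KO tumors. *Amt* (0.61) rose too, and *Shmt1* (-0.71) and *Gldc* (-0.65) fell. JSH-23 in KO tumors upregulated 2 and downregulated 1 of the 10 (9.10% and 16.9% of all genes). With JSH-23 in KO tumors, the glycine cleavage genes *Gldc* and *Amt* were at 0.60 and -0.60, so that they differed in sign from each other in both comparisons, which share the KO samples with vehicle. *Cdo1*, which starts taurine synthesis from cysteine, rose with JSH-23 in both genotypes, by 1.47 in KO and 1.44 in WT tumors, while the taurine carrier *Slc6a6* stayed within 0.12.

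Of 28 tested genes for the sensing of amino acids by mTORC1, the kinase complex that reports amino acid supply, 2 rose and 1 fell in KO tumors with vehicle, shares at or below the 7.48% and 5.16% of all genes. With JSH-23, 3 rose in KO and 4 in WT tumors (9.10% and 5.55% of all genes), and none fell in either (16.9% and 10.2%). *Castor2*, of the arginine sensor family, rose by 1.19 in KO and by 2.11 in WT tumors, and *Nprl3*, of the complex that restrains mTORC1, rose by 1.24 and 0.90. The leucine sensor *Sesn2*, which is also an ATF4 target, was counted in the ATF4 list and not among these 28. It went the other way in KO tumors and fell by 1.42 with JSH-23.

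As a measure of the treatment, 9 NF-κB feedback genes were tested. In KO tumors JSH-23 downregulated 5 of them and upregulated 1, *Nfkbia* (0.93), against 16.9% and 9.10% of all genes. In WT tumors JSH-23 downregulated 3 and upregulated none (10.2% and 5.55% of all genes). Between KO and WT tumors with vehicle, 4 of the 9 were upregulated and none was downregulated (7.48% and 5.16% of all genes). This comparison and that of JSH-23 in KO tumors share the KO samples with vehicle. *Cxcl2* changed by -2.73 and *Cxcl1* by -2.25 with JSH-23 in KO tumors. *Myc* was at 17.2 and 16.5 CPM in WT and 55.4 and 54.6 CPM in KO tumors with vehicle, and at 12.5 and 13.3 against 22.2 and 24.4 CPM with JSH-23. Whether these counts include the transcript of the transgene is not given in the sources used here.

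Over the 8 samples the level of *Slc7a11* followed that of *Slc38a1* (Pearson r = 0.992 on the log2 scale), and *Slc7a5* that of *Slc1a4* (r = 0.925). These values describe 8 samples in 4 groups that share their treatment, and carry no test. *Slc6a9* had the least company. Its nearest gene among the 9194 compared was *Ykt6*, at a root-mean-square difference of 0.121, while the nearest gene of each other transporter lay within 0.0504.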

How the data were processed

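RNA-seq of 8 samples in 4 groups of 2 was analysed, grouped by the labels. The authors deposited, for each of 39089 genes, a raw read count and a TPM value, which equals the count divided by the listed gene length, scaled per sample. The series-wide TPM table repeats the per-sample values and was not used. The labels' processing notes name HISAT2, HTSeq and DESeq2 with mm10, while the paper's methods name TopHat2 and strand-specific HTSeq-count; the TPM step is not described. Reads shared by overlapping or near-identical genes may be misplaced by such counting. No annotated pseudogene was named after a transporter.

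Counts were filtered with filterByExpr (13921 genes left), TMM-scaled (factors 0.949 to 1.03) and fitted over all 8 samples with edgeR 4.0.16 (R 4.3.3), quasi-likelihood, 1 mean per group, for 6 comparisons, with Benjamini-Hochberg adjustment over all tested genes. The common biological coefficient of variation was 1.61%. Total counts were 16401581 to 21972231. Samples of a group differed beyond sampling noise (chi-square per degree of freedom 1.46 to 1.57). Levels between genes were compared in TPM. Tables were summarised with Python 3.11.15 and pandas 2.3.3.

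The 10 members and all gene lists were chosen with earlier results of these data known. All members are named. From each other list up to 4 genes with the largest change are named per comparison (criterion met, on average 1 CPM or more). Besides these, *Atf4*, *Asns*, *Myc* and *Arid1a* are named. *Slc7a2*, *Slc7a1*, *Slc43a2*, *Farsb*, *Qars*, *Bcat1*, *Psat1*, *Phgdh* and *Tnfaip3* were named after their values were seen. For each member the 3 genes most alike over the 8 samples were found by the root-mean-square difference of centred log2 CPM (mean of at least 10 CPM). Alternatives were DESeq2 1.42.0, no TMM scaling, other filters, limma 3.58.1 on log2(TPM + 1) and log2(TPM + 0.1), a test against 1.5-fold, only the groups compared, the replicate number as a block, biological coefficients of variation of 0.1 and 0.2, and leaving out each sample. Counts of the ATF4 list under them were added after seeing the data. Some marker genes are not reported here.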

Additional observations from a re-analysis of the deposited data

Results flagged for a closer look

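By edgeR's interaction (quasi-likelihood, Benjamini-Hochberg adjusted over 13921 genes), the JSH-23 change differed between the 2 genotypes for 7 of the 10 transporters. Each had the more negative value in *Arid1a* KO tumors. The interaction was -1.37 on the log2 scale for *Slc6a9* (adjusted p = 3.19e-22), -0.56 for *Slc1a5* (3.70e-17), -0.55 for *Slc38a2* (2.34e-17), -0.46 for *Slc1a4* (2.56e-13), -0.36 for *Slc38a1* (1.92e-11), and -0.15 for both *Slc7a11* (5.52e-04) and *Slc7a5* (3.56e-06). The same adjusted p was passed by 5346 (38.4%) of all genes tested. At a biological coefficient of variation of 0.2 none of the 10 met the criterion in the interaction. The scaling mattered too, as the median interaction of all genes was -0.11 without TMM scaling and -0.17 on log2(TPM + 1). The fitted spread behind these values was small, and groups of 2 do not allow a search for a sample that stands apart.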

How the results depend on the processing

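Of 1130 values of the transporters under 19 alternatives, 1066 kept their direction and their side of the threshold, 16 lost and 21 gained the call, and 27 changed sign. Part of this agreement was built in. The test against 1.5-fold and the set coefficients of variation left the fold changes nearly as they were. A sample outside a comparison bears on it only through scaling, filtering and the shared spread. The number that met the criterion for JSH-23 in *Arid1a* KO tumors went from 5 to 2 when tested against 1.5-fold and to 2 at a biological coefficient of variation of 0.2, a setting that also left 0 for JSH-23 in WT tumors, 0 in the interaction, 1 for *Arid1a* KO tumors with JSH-23 against WT tumors with vehicle, and 7 and 8 ATF4 response genes for *Arid1a* loss with vehicle and JSH-23 in *Arid1a* KO tumors. The test against 1.5-fold also left 1 for *Arid1a* KO tumors with JSH-23 against WT tumors with vehicle. Without TMM scaling the interaction had 3 and the genotypes under JSH-23 differed in 1. Both TPM settings gave 4 and 1, and for *Slc38a2* with JSH-23 in *Arid1a* KO tumors -0.80 and -0.81. Leaving out each sample gave 1 to 2 in the interaction (2, with *Slc1a5* joining, without WT vehicle sample 1 or WT JSH-23 sample 2) and 1 to 2 for *Arid1a* KO tumors with JSH-23 against WT tumors with vehicle. The share of upregulated among all changed genes moved from 35.0% to 22.5% without TMM scaling and 12.8% on log2(TPM + 1) for JSH-23 in *Arid1a* KO tumors, from 36.5% to 18.8% and 10.6% in the interaction, from 34.9% to 24.5% and 12.4% for *Arid1a* KO tumors with JSH-23 against WT tumors with vehicle, and from 42.9% to 29.6% and 15.9% between the genotypes under JSH-23. The cause of these shifts was not tested.

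The changes of sign were -0.11 (both TPM settings, adjusted p = 0.00382 and 0.00386 in limma, against 0.12 at 1.10e-07 in edgeR) for *Slc3a2* with JSH-23 in *Arid1a* KO tumors. For *Slc7a6* there, they were -0.11 without TMM scaling, -0.02 with at least 10 counts in every sample, -0.21 and -0.22 on TPM (adjusted p = 0.00903 and 0.00841) and -0.04 to 0.07 with a sample left out (-0.04 without *Arid1a* KO vehicle sample 1). With JSH-23 in WT tumors they were -0.01 (both TPM settings) and -0.00168 to 0.07 with a sample left out (-0.00168 without WT vehicle sample 2) for *Slc7a6*, and 5.53e-04 for *Slc38a2*. Between the genotypes under JSH-23, *Slc7a5* was at -1.81e-04 on TPM, against 0.19 on the counts. In the interaction, *Slc3a2* was at 3.57e-04 and 2.08e-04, *Slc7a6* at 0.02 and 0.04 (from -0.07 to 0.04 over the samples left out), and *Slc6a6* at -0.10 without TMM scaling (adjusted p = 0.00113), -0.19 on TPM (0.00175 and 0.00174), -0.00497 with at least 10 counts, and -0.00259 and -0.01 with a sample left out. For *Arid1a* KO tumors with JSH-23 against WT tumors with vehicle, *Slc7a5* was at 0.00107 and 0.02 with a sample left out and *Slc6a9* at -0.08 on TPM.

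The replicate numbers did not pair the samples, since deviations from the group means correlated by -0.0876 to 0.0349 between same-numbered samples. With the replicate block the numbers of transporters that met the criterion were 1, 5, 1, 0, 1 and 2 in the 6 comparisons and changed no count. With 2 samples a group, a spread between tumors larger than that between these samples was not measured.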
